A study of Mus musculus with 9 samples.

Results

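The 10 genes described here are Trem2, Tyrobp, Apoe, Clec7a, Cst7, Lpl, Itgax, Axl, Spp1 and Cd68, a set widely used to recognise disease-associated microglia. They were taken by symbol from the 26602 genes with a count in the series. The rule used no measured value, but the set was proposed with earlier results of these data known. All 10 were found, and 8 of them had at least 10 counts over the 9 libraries, the level needed to enter the test. Cst7 and Itgax, with 3 counts each over the series, did not enter it and are described by their counts.

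The RNA came from midbrain tissue that held the substantia nigra pars compacta (SNpc), and the transcript 3′ ends were sequenced. The study asked whether mice without DJ-1, the protein encoded by the Parkinson's disease gene Park7, show inflammatory transcripts in the brain at an age of 3 to 4 months, before any motor phenotype. The groups were 4 wild type (DJ-1+/+) and 5 homozygous knockout (DJ-1-/-) libraries. The mice had received no treatment according to the labels, and the line had been backcrossed to C57BL/6 and bred from heterozygous parents. The DJ-1 allele was targeted in the germline, so it was missing from neurons, glia and blood cells alike, and the tissue was not sorted. The labels number the libraries within a genotype and do not say from which animals they came. A supplement of the study gives each library a further number of its own without saying what it stands for, so the p-values measure the spread between these libraries. In whole tissue, fewer cells of a type and less RNA per cell cannot be told apart.

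Microglia are the resident macrophages of the brain. Near plaques, dying neurons or damaged myelin they lower homeostatic genes such as P2ry12 and Tmem119 and raise a shared group of genes for lipid handling, phagocytosis and lysosomes. Trem2 is a surface receptor for lipids and lipoproteins that signals through the adaptor Tyrobp, and mouse microglia without Trem2 do not complete this transition. Several of the genes are not specific to microglia in healthy tissue: Apoe is mainly made by astrocytes, and Spp1 and Lpl are also made by neurons.

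Library totals were 841974 to 886085 UMI counts in DJ-1+/+ and 967751 to 1098125 in DJ-1-/-, and did not overlap (exact permutation test, two-sided, p = 0.0159). Values are given as cpm, the share of a library's counts that fell on a gene, scaled to a library of 1000000 counts, on which 3 counts, taken as the detection floor, correspond to 2.73 to 3.56 cpm. Park7 was 135 ± 15.7 cpm (SD, n = 4) in the wild type and 20.4 ± 4.54 cpm (SD, n = 5) in the knockout libraries, and no library went against its label. It was the only gene of 18127 with an adjusted p under 0.05 (edgeR quasi-likelihood, log2 fold change -2.71, adjusted p = 7.39e-08). Some libraries stood apart. DJ-1+/+ replicate 1 held 1119 cpm of 8 cerebellar neuron genes against 271 to 492 cpm in the other 8 libraries, and DJ-1+/+ replicate 4 held 1275 cpm of 12 choroid plexus genes against 391 to 670 cpm. DJ-1-/- replicate 5 held 81.9 cpm of 6 cholinergic motor neuron genes against 182 to 427 cpm. The Y-linked transcript Ddx3y was over 20 counts in 2 of 4 DJ-1+/+ and 1 of 5 DJ-1-/- libraries, so sex was mixed and not balanced between the genotypes. The 10 dopaminergic neuron genes were all detected and summed to 606 to 1074 cpm in DJ-1+/+ and 845 to 1123 cpm in DJ-1-/-.

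Markers of dopaminergic neurons, choroid plexus and cerebellum lay to 1 side of 0 between the genotypes. All 10 dopaminergic genes had higher fitted levels in DJ-1-/- (median log2 fold change 0.27), and 4 of them, Th, Slc6a3, Pitx3 and Ret, had an unadjusted p under 0.05 in edgeR. All 12 choroid plexus genes (median -1.63) and all 8 cerebellar neuron genes (median -0.93) were lower, 7 and 5 of them with an unadjusted p under 0.05, where the background was 2.83% of tested genes. None of these genes had an adjusted p under 0.05 in the fit of all 9 libraries, and 1 dopaminergic gene did without wild type replicate 2. Without that library 5 dopaminergic, 10 choroid plexus and 7 cerebellar genes had an unadjusted p under 0.05. The choroid plexus count was 0 without wild type replicate 4 and the cerebellar count 0 without wild type replicate 1, and the dopaminergic count was 0 without wild type replicate 3 or 4 or knockout replicate 2 or 4. The part of these differences in the levels of the 10 genes was not tested, beyond the fits without those libraries or with the choroid plexus genes as a covariate.

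None of the 10 genes was raised in DJ-1-/- midbrain beyond the spread between libraries. Of the 8 tested genes, 0 had an adjusted p under 0.05, where the background over all tested genes was 0.00552%. At an unadjusted p under 0.05 the count was 1, Clec7a, which was lower in DJ-1-/-, where the background was 2.83% of tested genes. DESeq2 likewise gave 0 at its adjusted threshold and 1, Clec7a, at the unadjusted one. The other 7 tested genes had log2 fold changes of -0.15 to 0.27. The median over the 8 was -0.04, beside 0.01 over all 18127 tested genes.

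**Figure D1:**
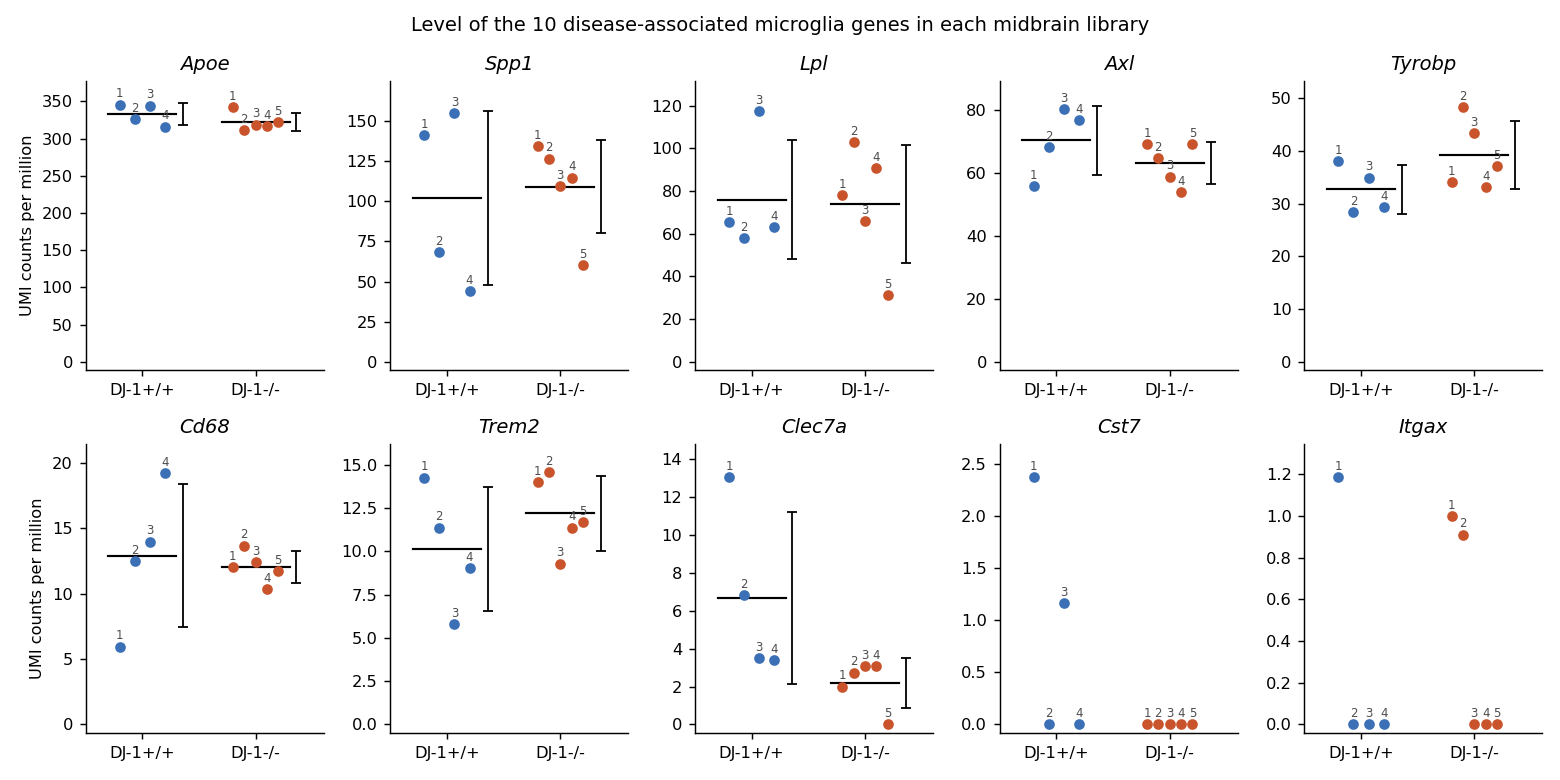
Level of each gene in each library, in cpm (vertical axis, from 0, with a separate scale for each gene), for DJ-1+/+ (blue, n = 4) and DJ-1-/- (orange, n = 5). Points are single libraries with their replicate number, horizontal lines are group means and bars are SD, left out for Cst7 and Itgax. Apoe is tightly grouped near 327 cpm, Spp1 and Lpl are scattered in both genotypes, and only Clec7a has groups that do not overlap.

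**Figure D2:**
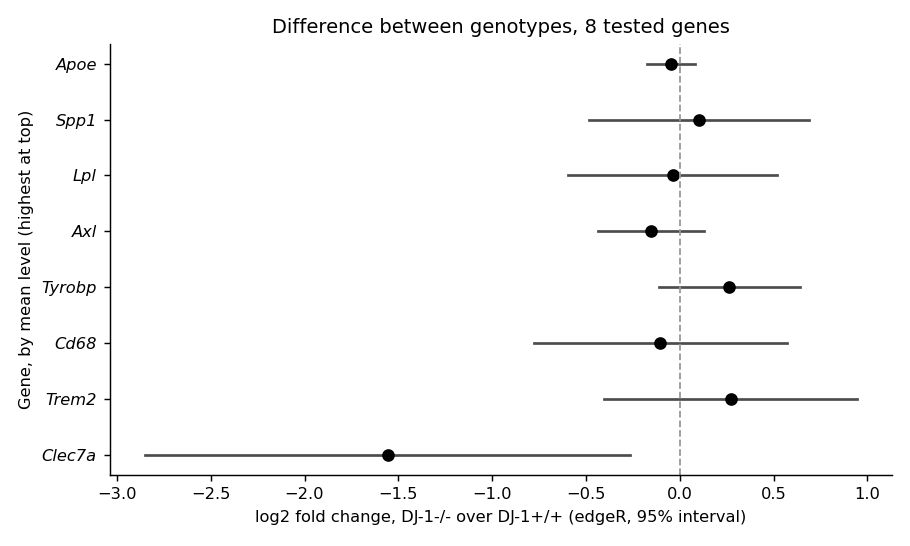
Fitted log2 fold change of the 8 tested genes, DJ-1-/- over DJ-1+/+ (horizontal axis; points, with 95% intervals from edgeR as lines), in order of mean level from Apoe at the top. The intervals of 7 genes cross 0, that of Apoe is the narrowest, from -0.18 to 0.08, and that of Clec7a runs from -2.85 to -0.27.

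The levels differed widely between the genes. Because 1 tag is counted per transcript 3′ end, these values need no division by transcript length, but a gene whose 3′ end is badly annotated or poorly primed will be undercounted. Mean levels over the 9 libraries fell in the order Apoe (327 cpm), Spp1 (106 cpm), Lpl (74.8 cpm), Axl (66.3 cpm), Tyrobp (36.3 cpm), Cd68 (12.4 cpm), Trem2 (11.3 cpm), Clec7a (4.19 cpm), Cst7 (0.39 cpm) and Itgax (0.34 cpm). The ranges over libraries of Apoe and Spp1, of Axl and Tyrobp, and of Tyrobp and Cd68 did not overlap. Spp1 and Lpl, Lpl and Axl, and Cd68 and Trem2 could not be ordered by their ranges, and Cd68 exceeded Trem2 in 4 of 9 libraries. Cst7 and Itgax were below the floor in every library.

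Trem2 (ENSMUSG00000023992, GRCm38 chr17:48346401-48354147, plus strand) had 12, 10, 5 and 8 counts in the DJ-1+/+ libraries, which is 14.3, 11.4, 5.82 and 9.03 cpm. The DJ-1-/- libraries had 14, 16, 9, 11 and 12 counts, or 14.0, 14.6, 9.28, 11.4 and 11.7 cpm. The highest wild type library lay among the highest knockout libraries, and the lowest value of all was a wild type one. The means of 10.1 ± 3.57 cpm (SD, n = 4) and 12.2 ± 2.14 cpm (SD, n = 5) did not differ beyond this spread (exact permutation test, p = 0.254). The fitted log2 fold change was 0.27 with an SE of 0.32, and its 95% interval corresponds to folds of 0.757 to 1.92.

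Tyrobp (ENSMUSG00000030579, chr7:30413760-30417585, plus strand), the adaptor that carries the signal of Trem2 and of other myeloid receptors, had 312 counts over the series against 97 for Trem2. Its levels were 38.0, 28.4, 34.9 and 29.3 cpm in DJ-1+/+ and 34.0, 48.3, 43.3, 33.1 and 37.0 cpm in DJ-1-/-. The 2 highest libraries were both knockout, the 2 lowest were both wild type, and the groups overlapped in between. The means were 32.7 ± 4.57 cpm (SD, n = 4) and 39.1 ± 6.48 cpm (SD, n = 5), with an exact permutation p of 0.159. The log2 fold change of 0.26 had an SE of 0.18 (unadjusted p = 0.155, edgeR), and folds of 0.926 to 1.56 lay inside its 95% interval.

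Clec7a (ENSMUSG00000079293, chr6:129461591-129472779, minus strand) encodes Dectin-1, a receptor for fungal beta-glucans that rises in the later, Trem2-dependent stage of activation, as Cst7, Lpl, Itgax, Axl and Spp1 do. GENCODE M21 lists it as a polymorphic pseudogene. Its counts were 11, 6, 3 and 3 in DJ-1+/+ and 2, 3, 3, 3 and 0 in DJ-1-/-. Replicate 1 of the wild type group was high, replicate 2 was above the floor, and the other 7 libraries were at or under it.

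As cpm, the wild type libraries had 13.1, 6.82, 3.49 and 3.39 and the knockout libraries 2.0, 2.73, 3.09, 3.10 and 0. Clec7a was thereby the only one of the 10 genes without overlap of the cpm values of both genotypes, where the background was 1.25% of tested genes. The gap between the groups, from 3.10 to 3.39 cpm, lay between libraries that all had 3 counts and differed only in their totals. As raw counts the groups met at 3.

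Clec7a averaged 6.69 ± 4.54 cpm (SD, n = 4) in the wild type and 2.19 ± 1.30 cpm (SD, n = 5) in the knockout libraries (p = 0.0159 by exact permutation test, the smallest this design can give). The edgeR log2 fold change was -1.56 with an SE of 0.61 (unadjusted p = 0.0212, adjusted p = 1). Over the pooled libraries the 23 wild type and 11 knockout counts gave a ratio of 0.328, with a 95% interval of 0.144 to 0.700 that covers counting error only. Without DJ-1+/+ replicate 1, which also held the high cerebellar neuron genes, the log2 fold change was -1.03 (edgeR, unadjusted p = 0.138). With counts thinned to the smallest library it was -1.42 (unadjusted p = 0.0543, edgeR), without wild type replicates 1 and 4 together -1.20 (unadjusted p = 0.126) and with a replicate block -1.18 (unadjusted p = 0.0730). With the stricter filter filterByExpr the gene did not enter the test. Without wild type replicate 3 or 4 the log2 fold change was -1.77 or -1.78 (unadjusted p = 0.0134 and 0.0120, edgeR). In cpm the exact permutation p without replicate 1 was 0.0357, the smallest that 3 against 5 libraries can give. The groups were parted there by the same gap between libraries of 3 counts. The fit without wild type replicates 1 and 4 left no wild type library with Ddx3y over 20 counts.

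Axl (ENSMUSG00000002602, chr7:25757273-25788705, minus strand) encodes a TAM receptor kinase that binds Gas6 on dying cells and is also present on vessels and astrocytes. It was 55.8, 68.2, 80.3 and 76.7 cpm in DJ-1+/+ and 69.1, 64.7, 58.8, 53.7 and 69.2 cpm in DJ-1-/-. The 2 highest libraries were wild type, but wild type replicate 1 was lower than 4 of the 5 knockout libraries. The group means were 70.3 ± 10.9 cpm (SD, n = 4) and 63.1 ± 6.73 cpm (SD, n = 5), with an exact permutation p of 0.270. The log2 fold change was -0.15 with an SE of 0.13.

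Apoe (ENSMUSG00000002985, chr7:19696109-19699188, minus strand), the main lipoprotein component of the brain and a ligand of Trem2, was the most abundant and the least variable of the set. The wild type libraries had 346, 326, 344 and 316 cpm, and the knockout libraries 342, 311, 319, 316 and 323 cpm. The highest library exceeded the lowest by 1.11-fold. As raw counts the groups did not overlap, with 280 to 296 in wild type and 306 to 342 in knockout libraries, but neither did the library totals, and the cpm overlapped. Means of 333 ± 14.4 cpm (SD, n = 4) and 322 ± 11.9 cpm (SD, n = 5) did not differ beyond the spread (p = 0.206, exact permutation test). In edgeR the log2 fold change was -0.05 with an SE of 0.06, and its 95% interval left room for folds of 0.885 to 1.06.

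Lpl (ENSMUSG00000015568, chr8:68880491-68907448, plus strand), the lipase that releases fatty acids from lipoproteins, varied strongly within each genotype. It was 65.3, 58.0, 118 and 63.2 cpm in DJ-1+/+ and 78.1, 103, 66.0, 90.9 and 31.2 cpm in DJ-1-/-. Wild type replicate 3 was the highest library and knockout replicate 5 the lowest, 3.77-fold apart. The means of 76.0 ± 27.8 cpm (SD, n = 4) and 73.8 ± 27.5 cpm (SD, n = 5) were close (p = 0.937, exact permutation test). In edgeR the log2 fold change of -0.04 (SE 0.26) had a 95% interval from -0.59 to 0.52, and became 0.25 without wild type replicate 3.

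Spp1 (ENSMUSG00000029304, chr5:104435118-104441050, plus strand) encodes osteopontin, a secreted integrin ligand. Its levels were 141, 68.2, 155 and 44.0 cpm in DJ-1+/+ and 134, 127, 109, 115 and 60.4 cpm in DJ-1-/-. In the wild type group 2 libraries were high and 2 low, and in the knockout group 4 were close together and replicate 5 was low. The means of 102 ± 54.3 cpm (SD, n = 4) and 109 ± 28.9 cpm (SD, n = 5) did not differ beyond this spread (p = 0.794, exact permutation test). In edgeR the log2 fold change was 0.10 with an SE of 0.28 and changed sign when wild type replicate 2 or 4 was left out.

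Cd68 (ENSMUSG00000018774, chr11:69664213-69666153, minus strand), a lysosomal glycoprotein of macrophages often stained as a sign of phagocytic microglia, had 5, 11, 12 and 17 counts in DJ-1+/+ and 12, 15, 12, 10 and 12 counts in DJ-1-/-. The knockout libraries all lay between the lowest and the highest wild type library. As cpm the means were 12.9 ± 5.45 (SD, n = 4) and 12.02 ± 1.201 (SD, n = 5), with an exact permutation p of 0.667, and the log2 fold change was -0.10 with an SE of 0.32.

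Cst7 (ENSMUSG00000068129, chr2:150570415-150578944, plus strand) encodes cystatin F, an inhibitor of lysosomal cysteine proteases that is nearly silent in resting microglia. It had 2 counts in wild type replicate 1, 1 in replicate 3 and 0 in the other 7 libraries, all below the floor. For the pooled knockout libraries a count of 0 allows up to 0.593 cpm. Itgax (ENSMUSG00000030789, chr7:128129547-128150657, plus strand), the integrin chain known as CD11c, had 1 count in wild type replicate 1 and 1 each in knockout replicates 1 and 2. In edgeR without a filter on low counts, Cst7 was lower in DJ-1-/- with an unadjusted p under 0.05 (adjusted p = 0.86). Its cpm gave an exact permutation p of 0.333. At this depth the counts cannot establish a difference between genotypes in either gene.

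Microglial genes were also set against homeostatic microglia genes, as a rough measure of the microglia present. Because microglia lower homeostatic genes in the transition, such a ratio mixes the number of cells with their state. The 20 homeostatic microglia genes were all detected and summed to 1106 to 1158 cpm in DJ-1+/+ and 1055 to 1248 cpm in DJ-1-/-, with overlap. Ctss, at mean levels of 132 and 135 cpm, also stands in the list of further programme genes described below. The sum is thus not made of homeostatic genes alone. None of the 20 passed an unadjusted p under 0.05 in edgeR, where the background was 2.83% of tested genes. A list of 20 genes is too short for a count of 0 to differ from that background. P2ry12, a nucleotide receptor of resting microglia, had a log2 fold change of -0.07 and Tmem119 one of 0.29, with SEs of 0.14 and 0.20. Markers of the other myeloid cells overlapped between genotypes as well. The 8 border macrophage genes summed to 38.0 to 92.1 cpm in DJ-1+/+ and 43.9 to 85.6 cpm in DJ-1-/-, and the 6 blood leukocyte genes to 9.03 to 17.8 and 2.92 to 22.7 cpm.

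Per 1000 counts of the homeostatic genes, Tyrobp was 28.8 ± 4.42 (SD, n = 4) in DJ-1+/+ and 33.6 ± 3.77 (SD, n = 5) in DJ-1-/-, and Trem2 was 8.96 ± 3.32 and 10.5 ± 1.70. Cd68 was 11.3 ± 4.61 and 10.3 ± 0.41 on the same scale. Each of them overlapped between genotypes. Clec7a overlapped here too, with the lowest wild type library at 2.92 and the highest knockout library at 2.94.

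**Figure D3:**
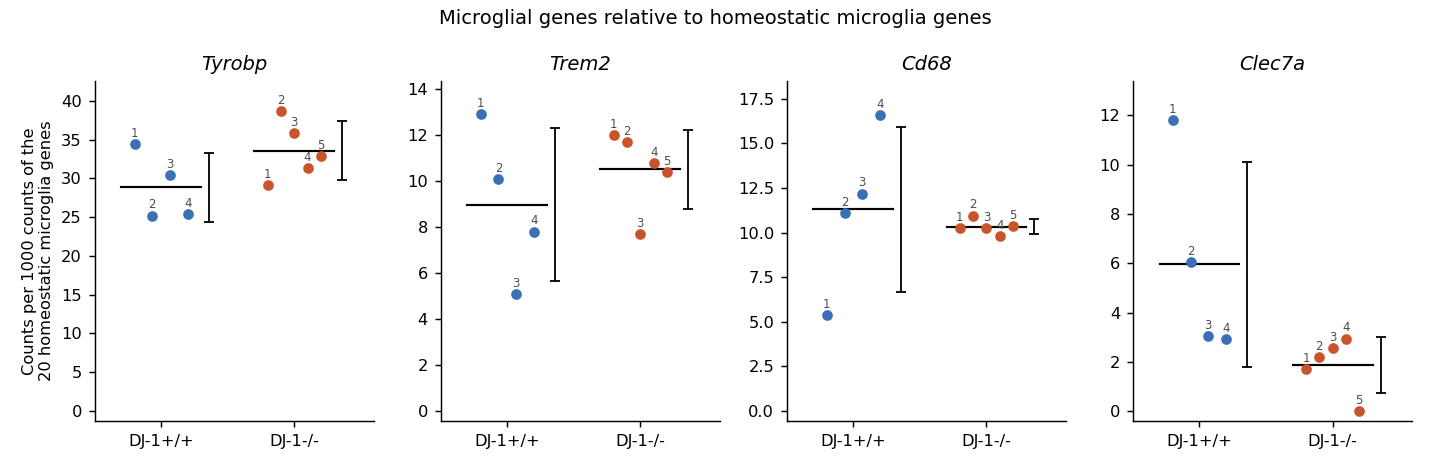
Counts of Tyrobp, Trem2, Cd68 and Clec7a per 1000 counts of 20 homeostatic microglia genes in the same library (vertical axis), for DJ-1+/+ (blue, n = 4) and DJ-1-/- (orange, n = 5). Points are libraries with replicate numbers, horizontal lines means and bars SD, and the genotypes overlap in all 4 genes, in Clec7a by the narrow margin of 2.92 against 2.94.

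Among the genes with at least 20 counts in every library, Spp1 and Lpl stood out by their spread within genotypes. The variance between libraries of 1 genotype was set against the variance that counting alone would give, and the median of this ratio over 9373 such genes was 1.02. The ratio was 15.3 for Spp1, higher than in 99.7% of those genes, and 9.86 for Lpl, higher than in 99.3%. Axl at 1.02, Tyrobp at 0.87 and Apoe at 0.49 varied about as much as counting, or less.

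The libraries with low Spp1 and Lpl were partly the same ones that held few transcripts of brainstem cholinergic motor neurons. Knockout replicate 5 was lowest in Lpl and in the 6 cholinergic genes, and wild type replicate 4 was lowest in Spp1 and second lowest in the cholinergic genes. Across the 9 libraries, on a log2(cpm + 1) scale, Pearson's r between the summed cholinergic genes and Lpl was 0.80 (Spearman's rho 0.67, exact permutation p = 0.0176 and 0.0589). For Spp1 the values were 0.71 and 0.63 (exact permutation p = 0.0272 and 0.0760). Without those 2 libraries r fell to 0.24 for Lpl and 0.36 for Spp1, so the relation rested on them. Both had Ddx3y over 20 counts, and the part of sex in this relation was not tested.

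Lpl had a relation of the opposite sign with the 8 cerebellar neuron genes, with rho = -0.80 and r = -0.42 (exact permutation p = 0.0138 and 0.244), and r was -0.68 without the 2 libraries farthest from the median of those genes. Spp1 had rho = -0.53 and r = -0.15 with the same genes (exact permutation p = 0.148 and 0.733), and r was -0.96 without the same libraries. Leaving out the 2 farthest libraries also changed r of Tyrobp with the choroid plexus genes, from -0.15 to 0.94. No r with libraries left out was tested.

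Spp1 was also related to the 6 oligodendrocyte genes, with r = 0.70 and rho = 0.82 (exact permutation p = 0.0332 and 0.0108), and r was 0.54 without the 2 libraries farthest from the median of those genes. Apoe was related to the 10 astrocyte genes with r = 0.77 and rho = 0.47 (exact permutation p = 0.0132 and 0.213), and r was 0.51 without the 2 farthest libraries. In all, 55 relations of 5 genes with 11 cell type lists were computed. None passed Benjamini-Hochberg adjustment. The relations of Lpl and Spp1 with the cholinergic genes, of Spp1 with the oligodendrocyte genes and of Apoe with the astrocyte genes had an adjusted p of 0.404 for Pearson's r, and that of Lpl with the cerebellar genes 0.837 for r and 0.380 for rho. Tyrobp and the homeostatic microglia genes had r = 0.60 and rho = 0.48 (exact permutation p = 0.0834 and 0.194, adjusted p = 0.459 for r), and r fell to 0.33 without knockout replicates 2 and 4. The part of these cells in the levels was not tested, beyond a fit with the cholinergic genes as a covariate, in which the log2 fold change was 0.02 for Spp1 and -0.13 for Lpl.

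**Figure D4:**
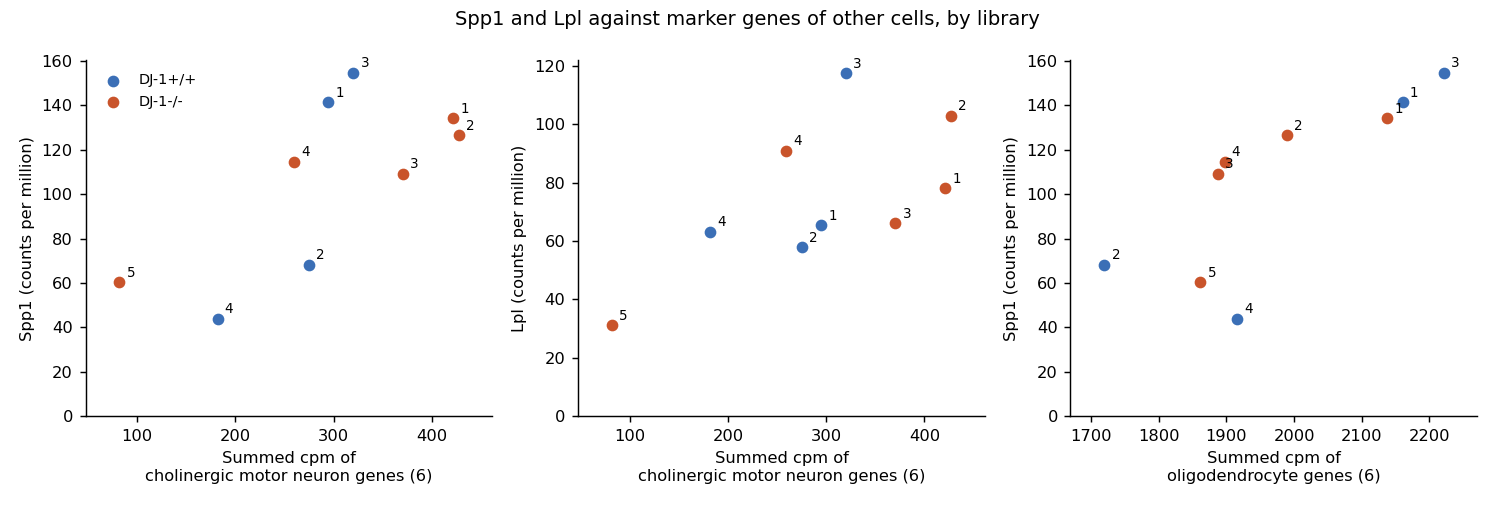
Spp1 and Lpl in cpm (vertical axes, from 0) against the summed cpm of 6 cholinergic motor neuron genes (left and middle) or 6 oligodendrocyte genes (right; horizontal axes do not start at 0), 1 point per library with its replicate number, DJ-1+/+ in blue and DJ-1-/- in orange. Knockout replicate 5 and wild type replicate 4 lie at the low end of both cholinergic plots, and the other 7 libraries show a weaker relation, with r of 0.36 for Spp1 and 0.24 for Lpl.

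Among themselves the 5 genes with at least 20 counts in every library formed 10 pairs. Spp1 and Lpl had the closest relation, with r = 0.67 and rho = 0.73 (exact permutation p = 0.0419 and 0.0311), which did not pass adjustment over the 10 pairs (0.419 and 0.311). It was 0.53 without the 2 libraries farthest from the median of Lpl. Tyrobp and Apoe, the receptor adaptor and a ligand of its receptor, had r = -0.18 and rho = -0.07 (exact permutation p = 0.633 and 0.880).

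Of 9372 other genes at the same depth, those with the pattern most like Spp1 over the 9 libraries were Rassf4, Stac2 and Rabgef1, with r of 0.98, 0.97 and 0.96. For Lpl they were Lin7b, Dlg2 and Ahnak2, with r of 0.98, 0.95 and 0.93. Usp31, Mypop and C1qbp were the closest to Apoe (0.97, 0.91 and 0.90), Dpf2, Gm28661 and Klf15 to Tyrobp (0.93, 0.92 and 0.91), and Kbtbd3, Gnl1 and Pde8a to Axl (0.96, 0.91 and 0.91). These genes were picked as the highest of many, so their r describes the 9 libraries and was not tested. No gene of the set or of the homeostatic list was among them. Trem2, Cd68, Clec7a, Cst7 and Itgax could not be, since they had fewer than 20 counts in every library. The same holds for homeostatic genes below 20 counts in any library, so this absence says little about microglial genes.

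The ligands, receptors and enzymes that act with these 10 genes were examined as 5 lists of 40 genes in all. Of these, 38 entered the test, with -0.01 as the median log2 fold change. At an unadjusted p under 0.05 edgeR counted 0 of the 38, where its background was 2.83% of tested genes, and DESeq2 counted none either. With so low a background, a count of 0 does not set a list of 38 genes apart from other genes. In the list of receptor signalling genes, 11 of 11 were tested, with a median of 0.15. Syk, the kinase that docks on phosphorylated Tyrobp, was at 2.32 ± 0.99 cpm (SD, n = 4) in wild type and 2.93 ± 1.13 cpm (SD, n = 5) in knockout libraries. Its counts of 1 to 4 per library lay around the floor. Hcst, the adaptor DAP10, was below the floor in every library, at 1.72 ± 0.63 and 0.98 ± 0.65 cpm. Inpp5d, a lipid phosphatase that restrains Syk signalling, had the highest log2 fold change of the well measured genes at 0.30 (SE 0.33), and Itgb2, the partner chain of Itgax, the lowest at -0.15 (SE 0.30).

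In lipoprotein handling 13 of 15 genes were tested, with a median log2 fold change of -0.02. Abca1, which loads lipid onto Apoe, was 52.2 ± 1.73 cpm (SD, n = 4) and 49.1 ± 11.8 cpm (SD, n = 5), and Lrp1, an Apoe receptor, 144 ± 7.91 and 145 ± 11.9 cpm. Apoc1 was lowest at -0.25 (SE 0.32) and Lmf1, which helps fold Lpl, highest at 0.12 (SE 0.16). Gpihbp1, which anchors Lpl to capillaries, had 1 count in the series, and Apoc2, the cofactor of Lpl, had 0 counts in every library.

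The TAM list held Gas6, Pros1, Mertk and Tyro3, all tested. Gas6, the ligand of Axl, was 102 ± 26.8 cpm (SD, n = 4) and 101 ± 9.55 cpm (SD, n = 5), Mertk was highest at 0.10 (SE 0.10) and Pros1 lowest at -0.13 (SE 0.17). All 7 osteopontin receptor genes were tested, and Cd44 was 39.1 ± 10.2 cpm and 38.8 ± 10.6 cpm, with Itga4 highest at 0.14 (SE 0.27) and Itga9 lowest at -0.25 (SE 0.19). Of the 3 cathepsins listed here as targets of cystatin F, Ctsc had a log2 fold change of 0.04 (SE 0.16), Ctsl of 0.00 (SE 0.09) and Ctsh of 0.22 (SE 0.17).

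A further 31 genes of the disease-associated programme, among them lysosomal proteases, antigen presentation genes and chemokines, were described in the same way. Of these, 27 were tested and 1 had an unadjusted p under 0.05, Ctsb, against the 2.83% of all tested genes. Whatever the p, 19 were higher and 8 lower in DJ-1-/-, around a median log2 fold change of 0.02. Over all 18127 tested genes 9412 were higher and 8715 lower, and of the 20 homeostatic genes 14 were higher and 6 lower. Ctsb, the lysosomal protease cathepsin B made by many cell types, was 190 ± 8.21 cpm (SD, n = 4) in wild type and 217 ± 20.3 cpm (SD, n = 5) in knockout libraries, and the groups overlapped. Its log2 fold change was 0.20 with an SE of 0.08 (edgeR, unadjusted p = 0.0252, adjusted p = 1), and it did not reach an unadjusted p under 0.05 by DESeq2, with a replicate block or without any one of wild type replicates 2 and 3 and knockout replicates 1 and 2.

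Of the well measured genes of that list, Csf1, the growth factor of microglia, had the lowest log2 fold change at -0.37 (SE 0.20, unadjusted p = 0.0788, edgeR) and Gusb, a lysosomal glucuronidase, the highest at 0.30 (SE 0.19). The genes that did not enter the test were Lilrb4a, Ccl3, Ccl4 and Il1b, with 1, 3, 7 and 4 counts over the 9 libraries.

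**Figure D5:**
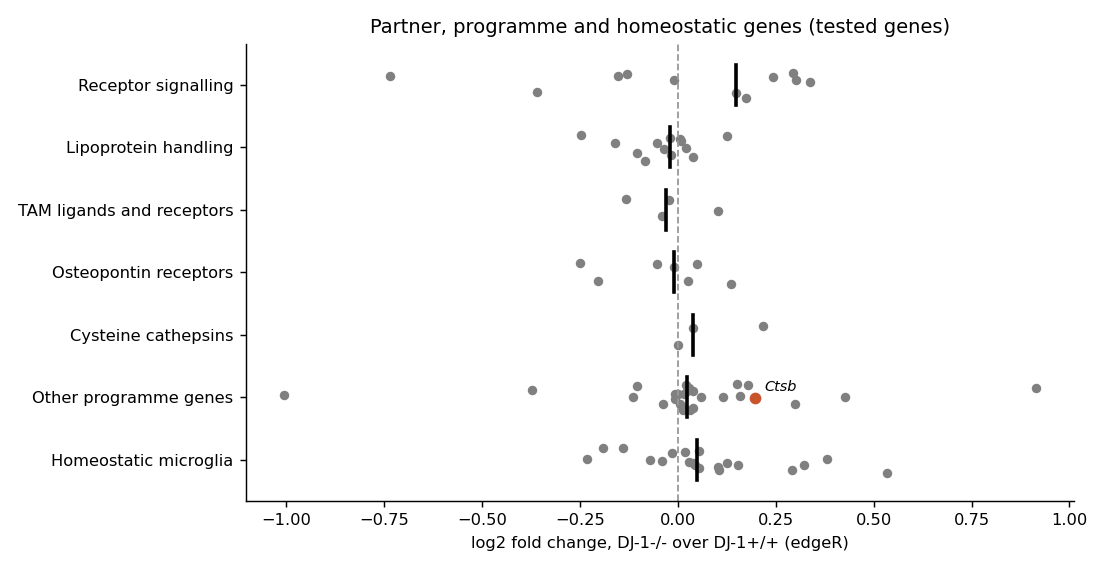
Fitted log2 fold change, DJ-1-/- over DJ-1+/+ (horizontal axis), of the tested genes in 5 lists of partner genes, the list of other programme genes and the homeostatic microglia list (rows). Grey points are genes, black bars are list medians and the orange point is Ctsb, the only gene shown with an unadjusted p under 0.05, and the medians lie between -0.03 and 0.15.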

How the data were processed

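The authors deposited, for each library, whole-number UMI counts per gene, not normalized. The kit was QuantSeq 3′ mRNA-Seq (FWD). The submitters' processing notes name fastp 0.20.0, STAR 2.7.3a, Subread featureCounts 2.0.0, UMI-tools 1.0.0 and GRCm38; the strand setting and annotation are not given in the sources used here. Without strand, overlapping genes on opposite strands cannot be told apart. Of the 10 genes only Spp1 overlaps another gene, Gm42793, which lies on the same strand and had 0 counts. How tags in their shared stretch were assigned is not known. A gene not listed in a library was given 0 counts. Symbols and positions came from GENCODE M21, which held 26570 of 26602 identifiers.

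Those genes whose 9 counts summed to 10 or more entered edgeR 4.0.16 (TMM, glmQLFit, glmQLFTest) in R 4.3.3, with Benjamini-Hochberg adjustment. The SE is the log2 fold change divided by the square root of F. Levels were compared as cpm by two-sided exact permutation tests over 126 arrangements (scipy 1.17.1). No replicate pair agreed within counting noise (chi-square per degree of freedom 1.07 to 2.27 over 16 pairs). The script was tested on simulated data. Alternatives were DESeq2 1.42.0, other scalings and filters, covariates, thinning, a replicate block and left-out libraries. The 10 genes and all lists were chosen with earlier results of these data known. Named were all 10 genes, set direct partners, list genes with an unadjusted p under 0.05, and list extremes with a mean of at least 10 counts per library. Ctss stands in 2 lists, that of the homeostatic microglia genes and that of the further programme genes. The edgeR intervals take in the spread between libraries, while the interval of the pooled Clec7a ratio and the floors cover counting error only.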

Additional observations from a re-analysis of the deposited data

Results flagged for a closer look

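Among 56 groups of 4 or 5 libraries examined with Dixon's ratio, over the 10 genes and 18 marker or partner lists, 2 held a library far from the others of its genotype, where chance flags about 1 in 20 groups. Lpl in DJ-1+/+ replicate 3 was 118 cpm, against 58.0 to 65.3 cpm in the other 3 wild type libraries. No list sum was flagged in that library or in any other. The cerebellar, choroid plexus and cholinergic sums said above to stand apart were therefore not flagged by this rule either. They were set there against the libraries of both genotypes. Itgax in DJ-1+/+ replicate 1 was 1.19 cpm, against 0 in the other 3 wild type libraries, which is 1 count.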

How the results depend on the processing

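No alternative gave any of the 10 genes an adjusted p under 0.05 (lowest adjusted p 0.86), and over 21 alternatives Trem2 kept log2 fold changes of 0.08 to 0.50, Tyrobp of 0.18 to 0.34, Apoe of -0.07 to -0.03 and Axl of -0.25 to -0.09. Clec7a ranged from -1.83 to -1.03 over 20, and was not tested with filterByExpr. Unadjusted p under 0.05 among the 10 genes was counted 2 times without a filter on low counts (Clec7a and Cst7), 0 times with filterByExpr, with thinned counts, with the replicate block and without wild type replicates 1 and 4 together, and 0 to 1 times with single libraries left out (0 without wild type replicate 1). The corresponding cpm difference for Clec7a without replicates 1 and 4 was -2.97 (exact permutation p = 0.0952, the smallest that 2 against 5 libraries can give).

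Signs changed as follows. Spp1 was -0.045 with Xist, -0.11 with choroid plexus genes as a covariate, -0.025 without wild type 1 and 4, and -0.15 to 0.38 with 1 library left out (in cpm, -2.43 without 1 and 4, -12.4 to 24.5 with 1 left out, negative without wild type 2 or 4). Lpl was 0.17 with the block and -0.19 to 0.25 with 1 left out (in cpm, -9.44 to 11.7), positive without wild type 3 or knockout 5. Cd68 was 0.066 with choroid plexus genes, 0.084 with thinned counts and -0.34 to 0.15 with 1 left out (in cpm, -3.20 to 1.22, and 0.00018 on the log2(cpm + 1) scale), positive without wild type 4. Itgax in cpm was -0.069 to 0.38 with 1 left out. The cause of these changes was not tested.

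Over all genes, an adjusted p under 0.05 was reached by 2 with the likelihood ratio test, 36 without a filter, 2 with choroid plexus genes, 8 with the block and 1 to 2 with 1 left out, and an unadjusted one by 235 with DESeq2, 802 without a filter, 338 with filterByExpr and 338 to 732 with 1 left out, against 513. Partner genes numbered 1 with the block (Abcg1), thinned counts (Vldlr) and without wild type 1 and 4 (Apoc1), and 0 to 1 with 1 left out. Other programme genes numbered 0 with DESeq2, 2 without a filter and with Xist (Ctsb and Csf1), and 0 to 2 with 1 left out. Deviations of same-numbered libraries correlated at -0.20 to 0.29 over 4 pairs, and 1 of 4 wild type libraries correlated best with its own number, so the block, fitted without knockout replicate 5, rests on a shared number alone. Depth limits Clec7a, Cst7 and Itgax, and differed between the genotypes. The fit with cholinergic genes as a covariate and the list counts without single libraries were added after seeing the data.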
